A study of Mus musculus with 3 samples.

Results

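Tissue of the fusing mouse palate was compared with tissue of the same organ culture taken before the shelves met, gene by gene, on 2 of the 3 Mouse Genome 430 2.0 arrays of the study. Maxillae of ICR mouse fetuses at E14, labelled female, were kept in suspension organ culture in BGJb medium with antibiotics, and no genotype or treatment set the stages apart. The array before fusion holds tissue from the edge of the palatal shelves at 5 h of culture, when the shelves had no contact, and the array during fusion holds median tissue at 24 h, when the epithelial seam was present. These pieces are those the methods give for RNA extraction, whereas the labels and another part of the methods name the edge for every stage. Each stage is 1 array. The methods speak of several samples for each stage and of RNA taken from each palate by itself, and how these became 1 array is not stated. No test between the stages can therefore be made, and every value below describes these arrays. The stage, the hours in culture and the piece of tissue changed together and cannot be told apart. In tissue of mixed cells, fewer cells of a type and less RNA per cell cannot be told apart either. The array after fusion (60 h) is used for scaling and, where it is given, as one more value.

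Of 45101 probe sets, 45037 are not controls. They name 18193 genes, of which 13911 lay above background on at least 1 of both arrays and 12117 on both. The brightest probe set stands for its gene, the signal is a MAS5 signal scaled to one trimmed mean, and background is the 95th percentile of 81 probe sets for olfactory, vomeronasal and taste receptors, here called the floor (19.4 before and 13.3 during fusion). Where the signal of 1 stage lay under its floor, the fold is a bound, written "at least". Where a gene had several probe sets above the floor at both stages, their log2 ratios of during over before fusion spread with an SD of 0.37, and of 0.23 where signals were over 100. The Y-linked genes *Eif2s3y* (71.7 before and 196 during fusion), *Kdm5d* (31.5 and 63.5) and *Uty* (46.6 and 74.7) lay above the floor beside *Xist* (2074 and 3224), which goes against the female label. The signal of the 5′ probe set of *Actb* over its 3′ probe set was 0.718 before and 0.713 during fusion.

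The palatal shelves are outgrowths of the maxilla with a core of crest-derived mesenchyme under an epithelium whose surface cells form the periderm. When the shelves meet, the medial edge epithelia adhere and form a seam that is later removed, while the nasal side of the epithelium goes on to form ciliated and secretory cells and the oral side a stratified epithelium. In the mesenchyme, bone forms in the shelves as the early patterning genes decline.

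During fusion, the signal of 1440 of 30444 probe sets above the floor exceeded 2 times that before it (4.73%) and 983 were over 2-fold lower (3.23%). Counted by gene, 760 of 13911 were higher (5.46%) and 444 lower (3.19%). Of these, 151 higher and 31 lower genes passed 4-fold, and 43 higher genes and 1 lower gene passed 8-fold. The higher side thus reached further than the lower side. The signal lay under the floor at 1 stage for 208 of the higher and 114 of the lower genes. Among the genes above the floor on both arrays, 552 of 12117 were higher (4.56%) and 330 lower (2.72%). The split between higher and lower genes moved with the scaling: 63.1% of the genes past 2-fold were higher, while setting the median signals equal gave 49.8%, quantile normalization 54.8%, scaling by the hybridization controls 75.8%, scaling by the poly-A controls 30.1%, and leaving the signals unscaled 87.1%. For that reason the medians of gene lists are given as the difference from the median of all genes, which was -0.05 on the log2 scale, and a list is called shifted where this difference is over 0.5. Where a median is said to keep its sign under all 6 scalings, it did so both before and after this subtraction. Scaling by a constant moves all ratios alike and leaves the difference nearly fixed. The check therefore lies in the value before the subtraction. Dim genes passed 2-fold more often than bright ones. Among genes with a mean signal under 64, 6.83% were higher and 6.87% lower, and among those over 1024, 1.55% and 1.46%. A further probe set above the floor was present for 298 of the higher and 148 of the lower genes, and it passed 2-fold the same way for 123 (41.3%) and 64 (43.2%) of them. It passed 2-fold the other way for 4 and 1. Counts of list members below are to be read beside the shares of all genes, 5.46% higher and 3.19% lower.

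**Figure D1:**
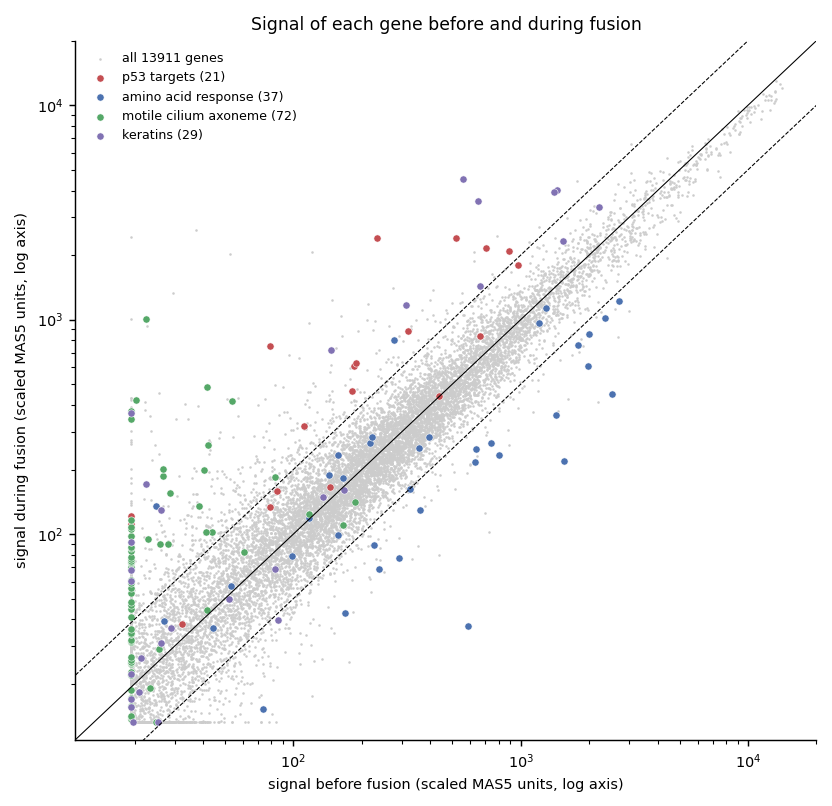
Scaled MAS5 signal of 13911 genes before (x axis) and during fusion (y axis), both on log axes, with signals under the floor drawn at the floor. The solid line marks equal signals and the dashed lines a 2-fold difference, with 20 of 37 amino acid response genes below the lower dashed line and 12 of 21 p53 targets, 13 of 29 keratins and 42 of 72 axoneme genes above the upper one.

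Genes of amino acid supply were lower during fusion. The list holds genes of the amino acid response, in which a shortage of amino acids or another stress lets the factor ATF4 switch on amino acid synthesis, uptake and tRNA charging. All 37 of its genes lay above the floor on both arrays, and 20 were over 2-fold lower and 2 higher during fusion. Their median was -1.10 relative to that of all genes and kept its sign under all 6 scalings. Among the carriers, *Slc7a3*, which takes up cationic amino acids, had a signal of 585 before and 37.3 during fusion and was 15.7-fold lower. *Slc7a5*, the large neutral amino acid carrier, had 1550 and 219 and was 7.09-fold lower. Its heavy chain *Slc3a2* had 1790 and 765 and was 2.34-fold lower. The 2 subunits of one carrier thus both fell, the light chain by more. *Slc7a1*, a second carrier of cationic amino acids, had 741 and 266 and was 2.79-fold lower, and *Slc1a4*, a carrier of neutral amino acids, had 227 and 88.5 and was 2.56-fold lower. Other carriers went the other way: *Slc7a2* (53.8 and 128), *Slc43a2* (24.6 and 52.5) and *Slc36a2* (20.5 and 44.7) were each over 2-fold higher, although the median over all probe sets of *Slc7a2* was a log2 ratio of -0.39. The signals of *Slc43a2* and *Slc36a2* before fusion lay near the floor of 19.4, and these genes were past 2-fold in 8 and 11 of 14 settings. Across 37 amino acid carriers above the floor, 6 were lower and 3 higher, with a median of -0.14 relative to that of all genes (-0.20 to -0.13 over the scalings). Over the scalings 4 to 8 were lower and 0 to 3 higher.

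Enzymes of amino acid and one-carbon synthesis fell too. *Asns*, asparagine synthetase, had a signal of 2511 before and 450 during fusion and was 5.58-fold lower, and its second probe set gave a log2 ratio of -2.13. *Shmt2*, which splits serine in mitochondria, had 1437 and 358 and was 4.02-fold lower, with all 4 of its probe sets past 2-fold. Of the serine pathway, *Phgdh* (2694 and 1217), *Psat1* (2353 and 1014) and *Psph* (635 and 249) were each over 2-fold lower, so that the 3 enzymes from glycolysis to serine all fell. *Mthfd2* (629 and 216), of mitochondrial folate, was 2.91-fold lower. *Aldh18a1*, of proline synthesis, had 1978 and 607, and *Gpt2*, which makes alanine, had 801 and 233. *Bcat1*, which starts the breakdown of branched-chain amino acids and stands outside the list, had 438 and 79.8 and was 5.48-fold lower. Of the regulators, *Trib3*, which restrains ATF4, had 169 and 42.8 and was 3.94-fold lower, and *Chac1*, which breaks down glutathione, had 237 and 68.5 and was 3.47-fold lower. *Adm2*, a peptide hormone gene, was at least 6.29-fold lower (83.7 and 11.3). *Atf4* itself had 1297 and 1135 and did not pass 2-fold. Nor did *Ddit3* (165 and 183), *Atf3* (53.1 and 57.5) or *Sesn2* (157 and 233). The members that were over 2-fold higher were *Fgf21*, a hormone gene (24.7 and 135, 5.46-fold), and *Cebpb*, a bZIP factor gene (277 and 802, 2.89-fold).

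Aminoacyl-tRNA synthetases, which load tRNAs with their amino acids, moved the same way. Of 19 cytosolic enzymes above the floor on both arrays, 8 were over 2-fold lower and none was higher. Over the scalings 3 to 9 were lower, so this count is not firm. The list median was -0.54 relative to that of all genes and negative under all 6 scalings. *Aars* had 1128 before and 372 during fusion and was 3.03-fold lower, *Iars* had 1195 and 466, *Gars* 1801 and 709, *Mars1* 1189 and 521, *Nars* 1843 and 816, *Lars* 1259 and 560, and *Cars* 419 and 191. *Kars*, by contrast, had 1207 and 1024, a ratio that did not pass 2-fold. The wider stress and synthesis machinery did not move with them. No gene of 25 chaperones of the unfolded protein response passed 2-fold (*Hspa5*, 4707 and 3076), none of 24 genes of ribosome biogenesis, and 1 of 46 cytosolic ribosomal protein genes. After fusion several of these genes had signals near or above those before fusion, with 216 for *Trib3*, 293 for *Chac1*, 2332 for *Slc3a2* and 431 for *Cars*, whereas *Shmt2* had 354 and *Bcat1* 70.9.

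**Figure D2:**
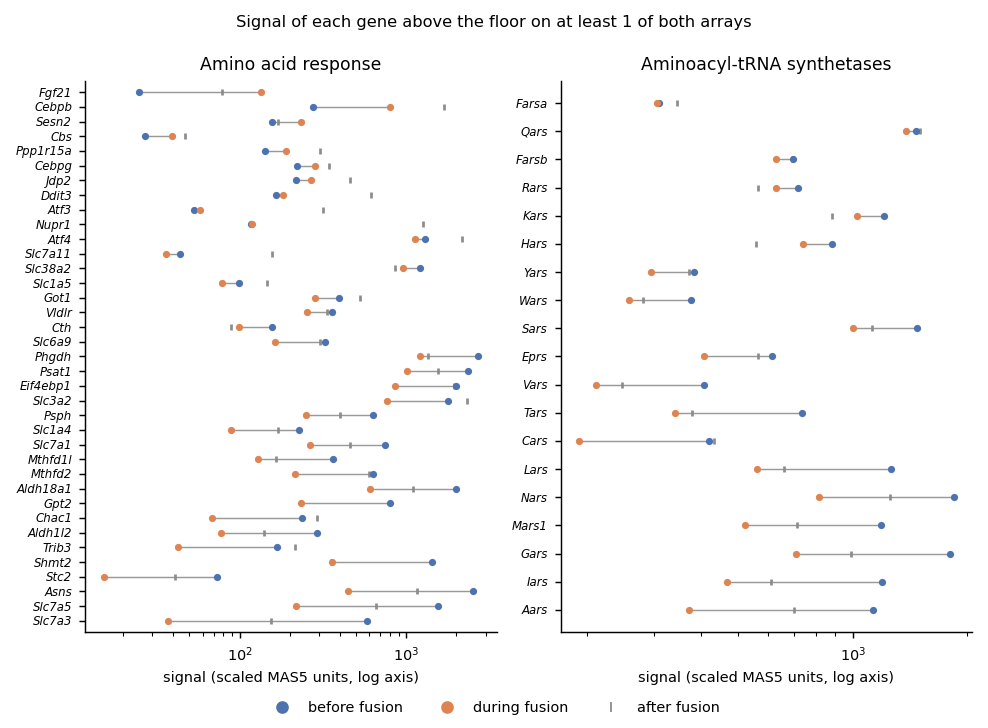
Scaled MAS5 signal (log axis) before, during and after fusion of 37 genes of the amino acid response (left) and of 19 aminoacyl-tRNA synthetases (right), 1 array per stage, ordered by the ratio of during over before fusion. The points during fusion lie left of those before fusion for most genes, by the most for *Slc7a3*, *Slc7a5* and *Asns* at the foot of the left panel, and right of them for *Fgf21* and *Cebpb* at its top.

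Promoters of these genes were searched for the C/EBP-ATF response element TGATGCAA on both strands, in the window from 250 bases before to 50 bases after the start site as given by RefSeq for GRCm38.p6. The element was present for 279 of 27025 genes with a window (1.03%), for 9 of 31 amino acid response genes (29.0%) and for 4 of 12 synthetases (33.3%). With the wider form TGATGNAA, which contains the first, the shares were 4.51%, 35.5% and 41.7%. The lists count genes above the floor alone, whereas the 27025 genes were not chosen by signal. Of 11166 genes above the floor with a window, 82 held TGATGCAA. Genes with the element went in both directions. Of the 9 response genes that hold TGATGCAA, *Chac1* and *Slc1a4* were over 2-fold lower and *Fgf21* was over 2-fold higher, whereas *Atf3*, *Got1*, *Nupr1*, *Vldlr*, *Slc7a11* and *Jdp2* did not pass 2-fold. Of the 4 synthetases, *Aars*, *Iars* and *Tars* were lower and *Yars* was not past 2-fold. Over all 82 genes above the floor that hold it, 9 were lower (11%) and 6 higher (7.32%), against 2.93% and 5.23% of 11084 genes without it. The stretches below show the element in a gene of glutathione breakdown and a synthetase that fell and in *Fgf21*, which rose. Capitals mark the match, which reads on the strand opposite the gene in all 3, at 193, 112 and 139 bases before the start site.
Chac1, chr2:119350992-119351116, + strand: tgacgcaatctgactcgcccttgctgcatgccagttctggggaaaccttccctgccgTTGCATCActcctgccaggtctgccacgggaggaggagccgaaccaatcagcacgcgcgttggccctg
Aars, chr8:111033670-111033797, + strand: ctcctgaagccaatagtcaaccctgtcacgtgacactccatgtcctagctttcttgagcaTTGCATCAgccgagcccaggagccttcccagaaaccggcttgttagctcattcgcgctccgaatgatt
Fgf21, chr7:45615562-45615689, - strand: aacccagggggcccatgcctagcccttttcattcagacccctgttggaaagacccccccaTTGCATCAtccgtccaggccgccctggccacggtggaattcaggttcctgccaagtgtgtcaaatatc

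Targets of p53, the factor that halts or kills damaged cells, were higher. The list holds 21 genes, all above the floor, and 12 rose by over 2-fold and none fell during fusion. Among the 18 above the floor on both arrays, 10 were higher. The list median was 1.41 relative to that of all genes and positive under all 6 scalings. *Cdkn1a*, which encodes the cell cycle inhibitor p21, had a signal of 232 before and 2392 during fusion, 10.3-fold higher, and its second probe set had 178 and 1476. *Ccng1*, cyclin G1, had 517 and 2392 and was 4.63-fold higher, with all 3 of its probe sets past 2-fold. *Pmaip1*, which encodes the death promoter NOXA, had 78.6 and 754 and was 9.59-fold higher. *Fas*, a death receptor, was at least 6.25-fold higher (12.8 and 121) and *Eda2r*, a receptor for an ectodysplasin, at least 5.71-fold (17.2 and 111). Of the feedback and repair genes, *Mdm2*, which removes p53, had 181 and 466 and was 2.57-fold higher, *Aen*, a nuclease, had 189 and 626 (3.31-fold, with 2 of 4 probe sets past 2-fold) and *Polk*, a DNA polymerase that copies past lesions, had 112 and 321. *Trp53inp1* (702 and 2171), *Zmat3* (184 and 607) and *Phlda3* (318 and 889) were also over 2-fold higher. *Perp*, which serves both p53-dependent death and the desmosome, had 884 and 2087 (2.36-fold).

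Not every target moved. *Sesn1* (435 and 441), *Btg2* (145 and 166), *Plk2* (661 and 839) and *Tigar* (32.4 and 38.1) did not pass 2-fold, nor did *Bbc3*, which encodes the death promoter PUMA (84.7 and 159). None of 23 genes of the caspase and Bcl2 families passed 2-fold, and their median was 0.04 relative to that of all genes. Other inhibitors of the cell cycle did not share the change of *Cdkn1a*: *Cdkn1b* had 378 and 304, and *Cdkn1c* 4557 and 4276. Of 34 DNA replication genes, 1 was over 2-fold lower (*Pold1*, 443 and 188) and none higher, and the list median was -0.52 relative to that of all genes and negative under all 6 scalings. *Mcm2*, of the replicative helicase, had 655 and 399 and *Pcna*, the polymerase clamp, 4316 and 2946, both short of 2-fold. None of 31 genes of mitosis passed 2-fold (*Top2a*, 1293 and 961, and *Mki67*, 747 and 621), and their median was -0.21 relative to that of all genes (-0.21 to -0.18 over the scalings).

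**Figure D3:**
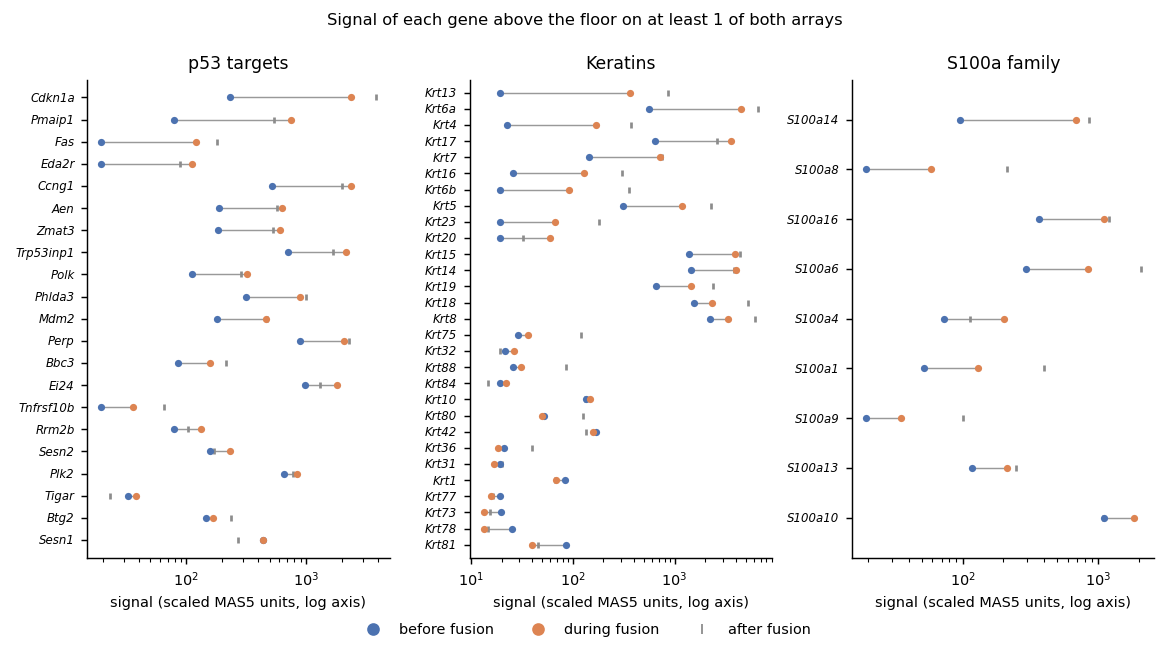
Scaled MAS5 signal (log axis) before, during and after fusion of the p53 targets, the keratins and the S100a family above the floor, 1 array per stage, with signals under the floor drawn at the floor and genes ordered by the ratio of during over before fusion. *Cdkn1a* and *Ccng1* end near 2392 during fusion, and keratins that were bright before fusion (*Krt14*, *Krt15*, *Krt17*, *Krt6a*) lie between 3562 and 4513 during it.

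Keratins, the filament proteins of epithelium, were higher. Of 48 keratin genes on the array, 29 passed the floor, and 13 rose by over 2-fold and 1 fell during fusion (9 and 1 of the 20 above it on both arrays). The list median was 0.64 relative to that of all genes and positive under all 6 scalings. *Krt6a*, of stressed and growing epithelium and of periderm, had 558 before and 4513 during fusion (8.09-fold), with all 3 of its probe sets past 2-fold. *Krt17*, of periderm and embryonic epithelium, had 649 and 3562 (5.49-fold). The basal keratins *Krt14* (1448 and 4045), *Krt15* (1396 and 3951) and *Krt5* (313 and 1174) were 2.79-fold, 2.83-fold and 3.75-fold higher. Basal epithelium genes as a list did not share this: of 14, 4 were over 2-fold higher, these keratins among them, and 1 was lower. The median of that list was 0.19 relative to that of all genes and took either sign before this subtraction. *Krt4*, of the inner lining epithelia, had 22.5 and 171 (7.59-fold), *Krt16* 26.2 and 129, and *Krt6b* was at least 4.72-fold higher (1.45 and 91.5). *Krt7*, of simple and gland epithelium, had 146 and 721 (4.93-fold). The keratins of simple epithelium changed by less: *Krt8* had 2207 and 3339, *Krt18* 1540 and 2329, both short of 2-fold, and *Krt19* 661 and 1440 (2.18-fold). The keratins of the cornified skin layers, *Krt1* (83.4 and 68.4) and *Krt10* (136 and 148), did not pass 2-fold, and the hair keratin *Krt81* was 2.15-fold lower (85.7 and 39.9).

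The general markers of epithelial cells changed by less than these leading keratins. *Cdh1*, E-cadherin, had 1279 and 1623 and *Epcam* 1646 and 2545, both short of 2-fold. *Trp63*, the master factor of stratified epithelium, had 544 and 374, and 2 of its 4 probe sets were over 2-fold lower. Of 25 pan-epithelial genes, 5 were over 2-fold higher (20%, against 5.46% of all genes) and none lower. Their summed signal was 13388 before and 20568 during fusion. This list is not separate from the keratins: it holds *Krt7*, *Krt8*, *Krt18* and *Krt19*, and *Krt7* and *Krt19* are among its 5 higher genes. The share of epithelium in the tissue was not measured, and its part in the keratin values was not tested. Of 32 genes of stratified and suprabasal epithelium above the floor, 15 were higher and 1 lower (11 and none of 21 above the floor on both arrays). Their median was 0.89 relative to that of all genes and positive under all 6 scalings. This list too shares genes with the keratins, among its higher ones *Krt13*, *Krt4*, *Krt6a*, *Krt6b*, *Krt16* and *Krt17*. *Ly6d*, a surface protein of keratinocytes, had 23.6 and 303 (12.8-fold), *Krtdap*, a keratinocyte differentiation gene, had 57.1 and 433 (7.58-fold), and *Serpinb5*, maspin, had 77.9 and 328 (4.21-fold). Epithelial transcription factor genes moved apart: *Ehf* (96.9 and 349) and *Ovol1* (27.5 and 81.0) were over 2-fold higher, while *Grhl3* (192 and 180) did not pass 2-fold. In the basement membrane, *Col17a1* of the hemidesmosome had 149 and 381 (2.57-fold) and *Frem2* had 212 and 98.4 (2.15-fold lower).

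Genes of the calcium-binding S100 proteins were higher. Of 9 S100a genes above the floor, 6 rose by over 2-fold and none fell (5 of the 7 above it on both arrays), with a median of 1.51 relative to that of all genes, positive under all 6 scalings. *S100a14* had 96.0 before and 682 during fusion (7.11-fold), *S100a16* had 367 and 1104 (3.01-fold) and *S100a6* had 292 and 840 (2.88-fold). *S100a8*, of neutrophils and stressed keratinocytes, was at least 3.02-fold higher (7.80 and 58.5). Among 8 annexins above the floor, a family picked because at least 40% of its members passed 2-fold, so that its count is a description, 4 were higher: *Anxa8* had 23.3 and 356 (15.3-fold), *Anxa3* 346 and 993, *Anxa1* 3060 and 6573 on 1 of its 2 probe sets, and *Anxa7* 393 and 811. *Anxa5*, for one, had 1981 and 2654 and did not pass 2-fold. Of 5 uroplakin genes of surface plaques, 4 passed the floor and 2 were over 2-fold higher. These were *Upk3a* at 22.2 and 411 (18.5-fold) and *Upk1b* at 90.4 and 484 (5.35-fold). *Upk1a* (34.3 and 58.8) and *Upk2* (138 and 130) did not pass 2-fold. In the desmosome, 3 of 10 genes were over 2-fold higher (30%, against 5.46% of all genes), among them *Dsc2* (444 and 980). Over the scalings 1 to 4 were higher, so this count is not firm. *Sfn*, a 14-3-3 protein of the periderm list, had 183 and 459 (2.51-fold). *Fgfbp1*, which releases FGFs from the matrix, had 148 and 1230 (8.31-fold).

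**Figure D4:**
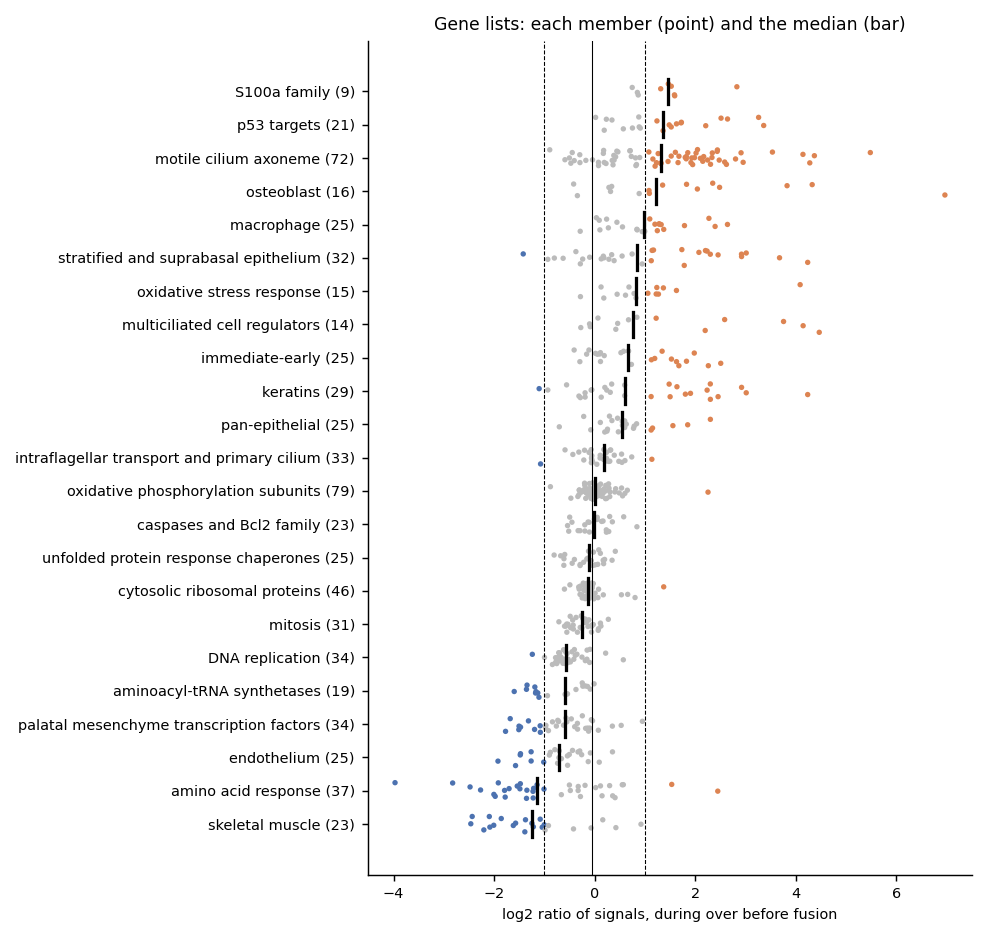
Log2 ratio of signals (x axis), during over before fusion, of each gene (points) in 23 lists, with the number above the floor beside each name, the list median as a bar, the median of all genes as a solid line and 2-fold as dashed lines; orange points are over 2-fold higher and blue points over 2-fold lower. Of the axoneme genes 42 lie past the right dashed line and of the intraflagellar transport genes 1, and the ribosomal protein and oxidative phosphorylation genes sit in a narrow band at the solid line with 1 point each past it.

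Genes of motile cilia, the beating cilia of airway cells, were higher at 24 h. Of 77 axoneme genes on the array, 72 passed the floor at 1 stage or both and 42 were over 2-fold higher and none lower. Since the other genes of the list lay above the floor on 1 array only, the count rests in part on which genes passed the floor. Of the 23 above the floor on both arrays, 16 were higher. The list median was 1.36 relative to that of all genes and positive under all 6 scalings. *Dynlrb2*, a dynein light chain, had 22.5 before, 1009 during and 5908 after fusion. *Lrrc23* and *Rsph1*, of the radial spoke, had 20.3 and 420 (20.7-fold) and 41.6 and 483 (11.6-fold). *Tppp3* had 53.8 and 417 (7.75-fold), *Cfap126* was at least 17.7-fold higher (16.7 and 343) and *Pifo* at least 19.4-fold (7.47 and 377). *Dnah5*, the outer arm dynein that heads the list, was 18.3 before fusion, under the floor, and 17.2 during fusion, and it had 51.1 after fusion.

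Regulators of multiciliated cells were higher in part. *Foxj1*, the factor that switches on motile cilium genes, was at least 13.5-fold higher (3.90 and 263). *Deup1* and *Ccno*, which act in making many centrioles, were at least 22.1-fold (2.79 and 429) and 17.7-fold higher (25.6 and 455). *Myb* had 82.8 and 497 (6.01-fold), with all 3 of its probe sets past 2-fold, *Foxn4* was at least 4.59-fold higher (7.02 and 89.1) and *Cep152*, a centriole scaffold, had 40.2 and 93.9 (2.33-fold). Others did not pass 2-fold, among them the centriole kinase *Plk4* (384 and 687) and the RFX factors that bind cilium promoters: *Rfx2* had 33.0 and 31.0 and *Rfx3* had 106 and 99.0, while *Rfx2* had 192 after fusion. Of 14 regulators above the floor, 6 were higher and none lower (3 of the 10 above it on both arrays), with a median of 0.80 relative to that of all genes, positive under all 6 scalings. The genes of transport within cilia and of the primary cilium, which most cells carry, stayed near the median of all genes. Of 33, all above the floor on both arrays, 1 was over 2-fold higher (*Bbs5*, 68.9 and 152) and 1 lower (*Wdr19*, 103 and 48.7), and *Ift88* had 161 and 183. Their median was 0.23 relative to that of all genes (0.20 to 0.23 over the scalings).

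The X-box, the palindrome-like site to which RFX factors bind, was searched as GTNNCCNNGGNNAC in the same windows. It was present for 583 of 27025 genes (2.16%), 9 of 59 axoneme genes (15.3%), 3 of 11 regulators (27.3%) and 6 of 29 genes of transport and the primary cilium (20.7%). The lists count genes above the floor alone, and of 11166 such genes with a window 315 held the X-box. Both cilium lists thus held it above the share of all genes. Of the 315 genes above the floor with an X-box, 32 were over 2-fold higher (10.2%) and 6 lower (1.90%), against 5.11% and 3.02% of 10851 without it. Shown are windows of 4 genes that were higher and of *Wdr19*, which was lower with the same element. Capitals mark the match.
Cfap126, chr1:171122903-171123036, + strand: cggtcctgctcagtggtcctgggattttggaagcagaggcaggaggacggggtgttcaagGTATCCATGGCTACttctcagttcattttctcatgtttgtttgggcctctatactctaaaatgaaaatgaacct
Pifo, chr3:106001498-106001577, - strand: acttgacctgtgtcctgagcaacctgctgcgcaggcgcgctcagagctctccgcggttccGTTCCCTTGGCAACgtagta
Deup1, chr9:15627860-15627993, - strand: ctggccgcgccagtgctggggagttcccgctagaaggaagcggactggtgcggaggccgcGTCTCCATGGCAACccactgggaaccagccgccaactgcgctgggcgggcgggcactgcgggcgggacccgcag
Ccno, chr13:112987552-112987656, + strand: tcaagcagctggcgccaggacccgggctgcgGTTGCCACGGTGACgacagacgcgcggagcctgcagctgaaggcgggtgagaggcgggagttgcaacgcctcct
Wdr19, chr5:65199602-65199695, + strand: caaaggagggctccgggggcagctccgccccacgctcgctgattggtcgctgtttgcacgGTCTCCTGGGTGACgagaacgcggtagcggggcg
The match lies 82, 20, 87, 219 and 34 bases before the start site, in this order.

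Secretory genes of airway and gland were higher in part. Of 38 on the array, 24 passed the floor, and 9 were over 2-fold higher and none lower (7 of the 12 above it on both arrays). Their median was 0.32 relative to that of all genes (0.23 to 0.32 over the scalings) and took either sign before this subtraction, so the list is not called shifted. *Scgb1a1*, a secretoglobin gene, lay under the floor at both stages (1.23 and 0.918), and *Slpi* (28.8 and 21.3) and *Sox2* (1749 and 1453) did not pass 2-fold. *Bpifa1*, a secreted airway protein, had 37.3 before and 2606 during fusion, and *Cyp2f2*, a cytochrome of club cells, had 52.7 and 2028. *Reg3g*, an antibacterial lectin, was at least 15.6-fold higher (5.24 and 302), *Lypd2* had 106 and 662 (6.25-fold), and *Foxa1*, an endoderm factor gene, had 399 and 1229 (3.08-fold). *Lyz1*, lysozyme of Paneth cells, had 30.5 and 343 (11.2-fold), but this ratio rests on probe sets that may also match other transcripts.

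Genes of the response to oxidants were higher, and enzymes that handle foreign compounds were higher in part. Of 15 genes of the oxidative stress response, which the factor NRF2 largely drives, 7 were over 2-fold higher and none lower, with a median of 0.87 relative to that of all genes, positive under all 6 scalings. Over the scalings 3 to 9 were higher, so this count is not firm. *Gpx2*, a glutathione peroxidase of epithelium, had 22.3 before and 379 during fusion (17-fold). *Srxn1* had 70.4 and 218 (3.09-fold), with all 3 of its probe sets above the floor past 2-fold, *Nqo1* had 106 and 274 (2.58-fold), *Hmox1*, which breaks down haem, had 108 and 254 (2.36-fold), and *Mt1*, a metallothionein, had 196 and 459 (2.34-fold). *Txnrd1* (786 and 891) and *Slc7a11* (44.1 and 36.3) of the same list did not pass 2-fold. Of 46 drug-metabolizing enzymes above the floor, 14 were higher and 3 lower (10 and 1 of the 31 above it on both arrays), with a median of 0.29 relative to that of all genes (0.27 to 0.29 over the scalings) that took either sign before this subtraction. The list is therefore not called shifted. *Cbr2*, a lung carbonyl reductase, had 120 and 2060 (17.1-fold), *Ephx1*, an epoxide hydrolase, 33.4 and 405 (12.1-fold) and *Gsta3*, a glutathione transferase, 24 and 221 (9.22-fold, on 1 of 2 probe sets). The transferases *Mgst1* (787 and 2448) and *Gsto1* (1764 and 4417) were 3.11-fold and 2.50-fold higher. *Gstm7* went the other way (130 and 37.6, 3.45-fold lower).

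Genes of retinoic acid, a signal that shapes the face, moved in both directions. *Aldh1a1* (22.6 and 934, 41.3-fold) and *Aldh1a3* (28.4 and 118, 4.16-fold on 1 of 3 probe sets), which make retinoic acid in epithelia, and *Adh1*, an alcohol dehydrogenase (54.2 and 283, 5.23-fold), were higher. *Aldh1a2*, which makes it in mesenchyme, had 512 and 163 and was 3.14-fold lower. *Cyp26a1*, which destroys retinoic acid, had 212 and 88.4 (2.40-fold lower), and *Stra6*, which takes up retinol, had 86.1 and 36.1 (2.38-fold lower). The 3 dehydrogenases thus did not move as one, and the median of 18 genes above the floor was -0.21 relative to that of all genes (-0.21 to -0.20 over the scalings).

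Stress and growth signals that act within hours were higher. Of 25 immediate-early genes above the floor, 10 rose by over 2-fold and none fell, with a median of 0.72 relative to that of all genes, positive under all 6 scalings. *Fos* had 74.7 before and 425 during fusion (5.69-fold), *Ier3* 154 and 737 (4.80-fold), *Fosl2* 144 and 570 (3.95-fold, on 1 of 2 probe sets), *Egr1* 263 and 932 (3.55-fold) and *Ccn1*, a matrix protein of the YAP response, 92.2 and 295 (3.19-fold). *Hbegf*, a ligand of the EGF receptor, had 36.1 and 155 (4.28-fold). Of 19 hypoxia-induced genes, 3 were higher (15.8%, against 5.46% of all genes) and none lower, with a median of 0.40 relative to that of all genes, positive under all 6 scalings. *Bhlhe40* (42.4 and 273), *Adm* (19.6 and 74.1) and *Ndrg1* (118 and 324) were over 2-fold higher, whereas *Vegfa* (148 and 126), *Slc2a1* (501 and 630) and *Car9* (41.0 and 29.5) did not pass 2-fold. Of 17 heat shock genes, 3 were over 2-fold higher (17.6%, against 5.46% of all genes) and none lower, with a median of 0.42 relative to that of all genes. *Hspa4l* had 35.7 and 184 (5.15-fold), with all 5 of its probe sets past 2-fold. *Cryab* had 42.2 and 108, and *Hspa1a* had 53.7 and 110. The other members did not pass 2-fold, among them *Hspa1b* (370 and 534) and *Hspa8* (5579 and 4602). Glycolysis (16 genes) held none past 2-fold, and oxidative phosphorylation held 1 of 79, *Cox6b2*, a subunit known from testis (210 and 1002, 4.77-fold).

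Macrophage genes were higher. Of 25 macrophage genes above the floor, 11 rose by over 2-fold and none fell (10 of the 20 above it on both arrays), with a median of 1.03 relative to that of all genes, positive under all 6 scalings, and a summed signal of 1682 before and 3548 during fusion. The defining receptor *Csf1r* had 196 and 236 and did not pass 2-fold, nor did *Adgre1*, F4/80 (57.6 and 103). The genes of the phagosome moved more, with *Lyz2* at 37.3 and 197, *Cd68* at 28.1 and 136, and *Gpnmb* at least 6.24-fold higher (18.8 and 121). *H2-Eb1*, a class II chain, had 24.6 and 259 (10.5-fold) and was the only one of 16 antigen presentation genes past 2-fold. Of 30 interferon response genes, 6 were higher (*Ifi35*, 91.1 and 373), or 4 of the 20 above the floor on both arrays. Of 28 cytokine and chemokine genes, 7 were higher and 2 lower, but of the 18 above the floor on both arrays 1 was higher and 2 were lower. *Ccl9*, a chemokine gene, was at least 4.52-fold higher (19.2 and 87.6). *Cd55*, which shields cells from complement, had 25.5 and 236 (9.25-fold). *Il33*, an alarm cytokine of epithelium and endothelium, was lower (80.4 and 32.0, 2.51-fold).

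Among genes known from mesenchyme, those of early pattern fell while those of bone and fibrous matrix rose, in dissected tissue of mixed cells. Of 34 palatal mesenchyme transcription factor genes, 9 were over 2-fold lower and none higher, with a median of -0.55 relative to that of all genes, negative under all 6 scalings. *Foxf1*, a hedgehog target, had 596 before and 210 during fusion (2.84-fold lower), *Six2* 1886 and 756 (2.49-fold lower), and *Foxc2* 77.1 and 27.1 (2.85-fold lower). The general markers *Twist1* (925 and 864) and *Meox2* (376 and 345) did not pass 2-fold. Outside that list, *Tfap2b*, an AP-2 factor gene of the face, had 176 and 25.3 (6.97-fold lower) with both probe sets past 2-fold, while its paralog *Tfap2a* had a log2 ratio of 0.07. The linked genes *Dlx1* (331 and 76.8) and *Dlx2* (166 and 66.4) were 4.32-fold and 2.50-fold lower, and *Dlx5*, which is also a bone gene, was 2.12-fold higher (102 and 216). *Hmga2*, a chromatin protein of growing embryonic cells, had 1456 and 377 (3.87-fold lower) with all 3 of its probe sets above the floor past 2-fold. *Asb4* had 2178 and 411 (5.30-fold lower).

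Bone genes split between those present at both stages and those that appeared. Of 16 osteoblast genes above the floor, 10 rose by over 2-fold and none fell, with a median of 1.27 relative to that of all genes, positive under all 6 scalings. Of the 7 above the floor on both arrays, 3 were higher: *Sp7*, osterix (43.9 and 181, 4.12-fold), *Alpl*, alkaline phosphatase (179 and 457, 2.55-fold), and *Dlx5*. *Ibsp*, bone sialoprotein, went from 6.35 to 2431 and *Ifitm5*, of mineralizing osteoblasts, from 11.5 to 390 (at least 20.1-fold). *Mmp13*, a collagenase of bone and of the medial edge, was at least 21.7-fold higher (9.25 and 421). *Col1a1* had 1180 and 2180, short of 2-fold. Small leucine-rich proteoglycans and matrix genes rose for 8 of 20, with *Ogn* at 273 and 1398 (5.12-fold), *Aspn* at 224 and 893 (3.98-fold), *Kera* at 43.6 and 167 (3.84-fold) and *Mgp* at 237 and 725 (3.06-fold), and the list median was 0.52 relative to that of all genes and positive under all 6 scalings. Cartilage collagens moved in both directions. *Col2a1* had 429 and 167 (2.56-fold lower) and *Col9a1* 596 and 212 (2.81-fold lower). *Col11a2* rose from a signal under the floor (6.91 and 53.5, a log2 ratio of at least 1.46). *Col9a2* (63.6 and 105), *Col9a3* (70.8 and 101) and *Col11a1* (287 and 292) did not pass 2-fold. The median of the cartilage list was 0.07 relative to that of all genes and took either sign before this subtraction. *C1qtnf3*, a secreted protein of cartilage and bone, was at least 22.3-fold higher (14.7 and 432) and had 151 after fusion. *Tagln*, of contractile cells, had 117 and 966 (8.23-fold) and 299 after fusion.

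**Figure D5:**
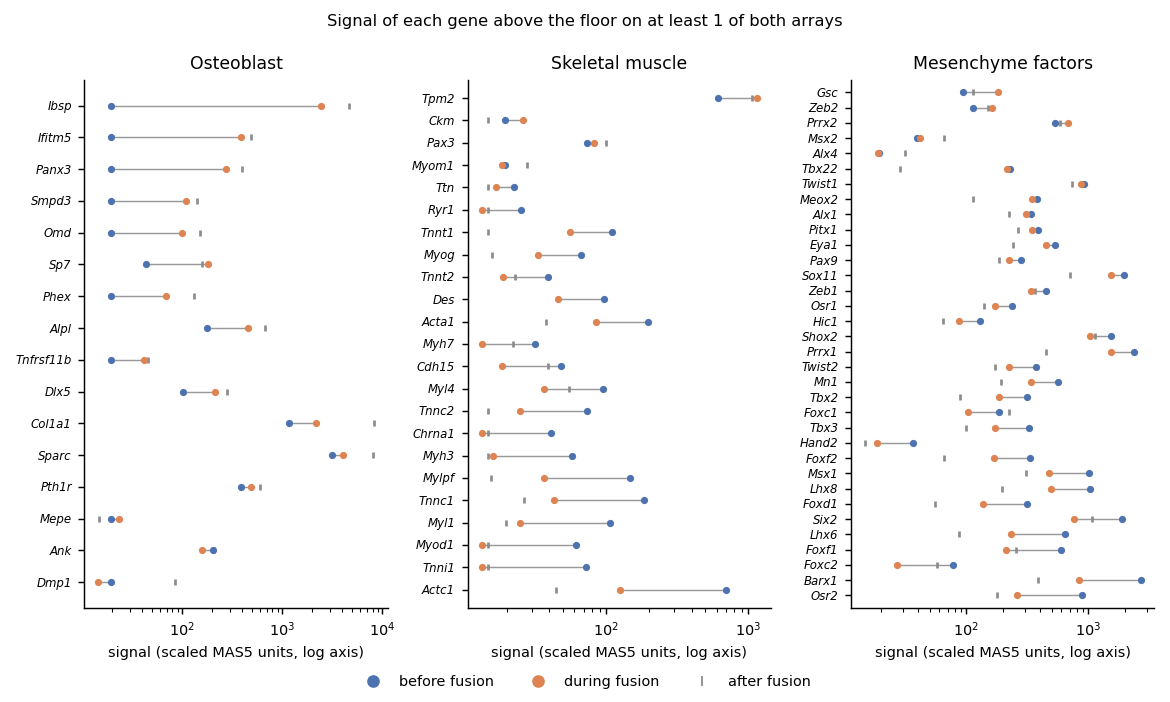
Scaled MAS5 signal (log axis) before, during and after fusion of osteoblast genes, skeletal muscle genes and palatal mesenchyme transcription factors above the floor, 1 array per stage, with signals under the floor drawn at the floor and genes ordered by the ratio of during over before fusion. During fusion 10 of 16 osteoblast genes lie over 2-fold to the right, 16 of 23 muscle genes over 2-fold to the left, and 9 of 34 mesenchyme factors over 2-fold to the left, with *Osr2* and *Barx1* at the foot.

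Other tissues gave lower signals. Of 34 skeletal muscle genes on the array, 23 passed the floor, and 16 were over 2-fold lower and none higher (12 of the 16 above it on both arrays), with a median of -1.20 relative to that of all genes, negative under all 6 scalings, and a summed signal of 2966 before and 1938 during fusion. *Actc1* had 694 and 126 (5.52-fold lower), *Tnnc1* 184 and 43.3 (4.24-fold lower), and *Myod1*, the muscle master factor, was at least 4.61-fold lower (61.4 and 3.12). *Myog* had 66.7 and 33.2, at the edge of the threshold (2.01-fold lower). Of 25 endothelial genes, 7 were lower and none higher, with a median of -0.66 relative to that of all genes, negative under all 6 scalings, and a summed signal of 5140 before and 2645 during fusion. *Aplnr*, the apelin receptor, had 1613 and 425 (3.80-fold lower), *Plvap* 182 and 61.1, *Tek* 96.3 and 34.6, and *Cdh5*, VE-cadherin, 116 and 48.3, while *Pecam1* (97.3 and 56.2) and *Kdr* (146 and 103) did not pass 2-fold. The embryonic globins *Hbb-bh1* (723 and 102, 7.07-fold lower) and *Hba-x* (3006 and 1098, 2.74-fold lower) fell, *Hbb-y* had 11444 and 8584, and *Alas2*, of haem synthesis in red cells, had 79.4 and 102. The share of muscle, vessel and blood in each dissected piece was not measured and its part in these values was not tested.

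Genes of cell contact and guidance in the nervous system and mesenchyme had medians below that of all genes. Of 46 cadherins and protocadherins above the floor, 9 were over 2-fold lower (19.6%) and 1 was higher (2.17%), against 3.19% and 5.46% of all genes. Their median was -0.30 relative to that of all genes, negative under all 6 scalings. *Cdh10* had 124 and 25.6 (4.83-fold lower) and *Pcdh8* 77.9 and 275 (3.53-fold higher). Of 49 ephrins, semaphorins and their receptors, 4 were lower (8.16%) and 1 was higher (2.04%), against the same shares of all genes. Over the scalings 1 to 9 were lower and 1 to 2 higher, so the count of lower genes is not firm. Their median was -0.31 relative to that of all genes, negative under all 6. *Epha3* (2142 and 1026), with all 4 of its probe sets past 2-fold, and *Plxna4* (65.0 and 16.3) were lower. *Epha2*, an epithelial Eph receptor, was higher (39.2 and 133, 3.40-fold). *Unc5d*, a netrin receptor, had 134 and 26.2 (5.12-fold lower) and *Ngfr*, of crest and nerve, 379 and 135 (2.81-fold lower).

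Signalling pathways of palate growth differed in the share of members past 2-fold, which was 5.46% higher and 3.19% lower among all genes. None of 26 BMP, 20 Notch or 13 IGF pathway genes passed it. Of 15 hedgehog pathway genes, 1 was lower (6.67%), and 13 had a ratio below 1. Their median was -0.44 relative to that of all genes and negative under all 6 scalings, with *Gli1* at 234 and 126 and *Ptch1* at 1795 and 1168, both short of 2-fold. Of 23 TGF-beta pathway genes, 3 were higher (13%) and none lower, and *Tgfb3*, which the medial edge needs for fusion, had 306 and 575, short of 2-fold. In the Wnt pathway, 6 of 51 genes were lower (11.8%) and 4 higher (7.84%), with a median of -0.04 relative to that of all genes. The activators *Rspo2* (119 and 30.3, 3.93-fold lower on 1 of 2 probe sets) and *Rspo3* (374 and 148, 2.52-fold lower) and the effector *Lef1* (92.7 and 38.1, 2.43-fold lower) fell, while the inhibitor *Wif1* (143 and 446, 3.11-fold) and the epithelial ligand *Wnt10a* (78.5 and 182, 2.32-fold) rose. Of 31 FGF pathway genes, 4 were higher (12.9%) and 2 lower (6.45%). Among them, *Fgf7*, a mesenchymal ligand for epithelium, had 26.0 and 61.7 (2.38-fold higher on 1 of 2 probe sets) and *Fgfr3* 159 and 354 (2.23-fold higher). *Gal*, the neuropeptide galanin, was high at this stage alone, with 29.7 before, 1337 during and 79.7 after fusion, on 1 probe set.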

How the data were processed

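RNA of palatal tissue from each stage was hybridised by the authors to 1 Mouse Genome 430 2.0 array. The deposited values are MAS 5.0 signals, a linear intensity that summarises the probes of a probe set. The paper's methods name Trizol and the labels another kit for RNA extraction, which was not resolved. Each array was scaled here to the 2% trimmed mean of the 3 arrays, and signals under the floor (the 95th percentile, on each array, of 81 probe sets for sensory receptors) were raised to it before ratios were taken. Probe sets of 1 gene (34945 of 45037) were named from the platform annotation, with 34741 symbols updated by gene ID to RefSeq for GRCm38.p6. Of the other probe sets, 932 name several genes and 9160 none. The brightest probe set represents a gene. A difference counts where it exceeds 2-fold. With 1 array per stage no test was made, the number of arrays limits the precision, and list medians and counts are descriptions. The 78 gene lists matched 2037 entries and 92 were not matched. Members and lists were chosen with earlier results of these data known. Genes named in the text were the 25 most extreme ratios, the 10 largest bounds and the 15 largest signal differences each way, the first 2 genes of each list with up to 6 members in its direction and 3 the other way, members of symbol families of 5 or more in which 40% passed 2-fold, and genes the study names. Named outside this rule, after their values were seen, were *Phgdh*, *Psat1*, *Psph*, *Mthfd2*, *Aldh18a1*, *Gpt2*, *Chac1*, *Ddit3*, *Atf3*, *Kars*, *Got1*, *Nupr1*, *Vldlr*, *Jdp2*, *Tars*, *Yars*, *Polk*, *Trp53inp1*, *Zmat3*, *Phlda3*, *Plk2*, *Bbc3*, *Cdkn1b*, *Cdkn1c*, *Pcna*, *Ift88*, *Plk4*, *Adgre1*, *Twist1*, *Meox2*, *Hmga2*, *Col1a1* and *Kdr*. Alternatives were 5 other scalings, 4 other floors, another threshold, and other choices of probe sets. Counting was tested on simulated data. Python 3.11.15, pandas 2.3.3, numpy 2.4.6 and matplotlib 3.10.9 were used.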

Additional observations from a re-analysis of the deposited data

How the results depend on the processing

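Each stage is 1 array, so that replicate error is unknown and no result has a replicate check. No paired analysis was possible because each stage has 1 array. Higher and lower probe sets numbered 759 and 2457 (genes 451 and 1049) with the poly-A controls, 2806 and 413 (genes 1361 and 202) with signals as deposited, and 6448 and 5514 (genes 2174 and 1834) without a floor. Lower probe sets numbered 467 (genes 247) where the floor was the array median and 480 (genes 237) with the floor added to both signals. At 4-fold, 211 probe sets were higher and 50 lower. In the other settings these counts moved by less than 1.5 times. With 1 common floor for both arrays only the lower side changed. It fell from 983 to 683 probe sets and from 444 to 335 genes, while the higher side stayed at 1440 and 760. All 27 lists with a median over 0.5 from that of all genes kept their sign under the 13 alternatives run for lists (the 4-fold threshold was run for counts of probe sets alone). Scalings by a constant move all ratios alike and leave this difference nearly fixed, so only the other alternatives could have turned it. The restriction to genes above the floor on both arrays was chosen after seeing the data. Of 186 named genes past 2-fold (*Col11a2* is not among them), 184 kept their sign and 144 stayed past 2-fold in every alternative that gave a value. With the median over all probe sets of a gene, the log2 ratio turned for *Slc7a2* (-0.39) and *Kdm5d* (-0.086). For dim genes, a ratio at the floor is a bound.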

Other observations

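Long non-coding RNAs were looked at after their values were seen. *Malat1*, a nuclear RNA, was over 2-fold higher during fusion on 7 of 7 probe sets above the floor, with log2 ratios from 1.14 to 3.07. *Meg3*, an imprinted RNA, was over 2-fold higher on 5 of 11, with ratios from 0.38 to 1.37. *Neat1*, the RNA of paraspeckles, was split, with 1 of 2 probe sets higher and ratios of -0.71 and 3.80. *Xist* was over 2-fold higher on 2 of 3.

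Families found by symbol stem, in which at least 40% of the members above the floor passed 2-fold, held genes outside the lists too. Of 10 Serpinb genes, which encode intracellular protease inhibitors, 4 were higher and none lower. *Serpinb11* had a signal of 57.1 before and 355 during fusion and was 6.22-fold higher. Of 5 Slitrk genes, which encode synaptic membrane proteins, 3 were lower and none higher, and of 5 Cacng genes, which encode calcium channel subunits, 2 were lower and none higher. These stems were picked by the share that passed 2-fold, so their counts are a description.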
